A study of Homo sapiens with 24 samples.

Results

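The difference between 2 pancreas cell lines in their response to vesicles from PANC-1 pancreatic carcinoma cells was measured by RNA-seq. For each gene, the change from residual medium to PANC-1 vesicles in HPNE was subtracted from the same change in HPDE, so a positive line difference means a larger rise, a smaller fall, or a rise against a fall in HPDE. The comparison used 12 of the 24 libraries of the study, 3 from each of 4 groups, and 10483 of 48162 listed genes, those whose mean FPKM reached 1 in each line (12 libraries). FPKM is a read count scaled to the length of the gene and to the total of the library. The members of the groups were chosen from the sample titles, and the gene filter used only levels averaged over all treatments of a line.

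HPDE is HPDE-H6c7, an immortalised line of pancreatic duct epithelium, and HPNE is hTERT-HPNE, a pancreas line that carries the telomerase gene (hTERT). Both were grown in keratinocyte serum-free medium with antibiotics in 24-well plates, and each stands for its tissue through 1 line only. The PANC-1 EV groups had 1e10 extracellular vesicles (EV) per well for 24 h. The residual medium groups, the negative control, had the liquid that remained after EV isolation for the same time. Beside these the study holds, for each line, a fresh serum-free medium group, which is the untreated control, and a group given 1e10 EV from PPCL-68 cells. The study is titled around the unfolded protein response of normal pancreatic cells, and the contrast of the lines asks whether both recipients responded alike. The replicates are labelled biological triplicates, but separate cultures are not described further, so p-values measure the spread between these libraries.

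Extracellular vesicles are membrane-bound particles that carry proteins, lipids and RNA, and recipient cells take them up largely by endocytosis into compartments that lead to the lysosome. Stress in the endoplasmic reticulum or a shortage of amino acids activates kinases that phosphorylate the initiation factor eIF2alpha. Translation then slows while the transcription factor ATF4 is made, and ATF4 with its partners turns on amino acid transporters, amino acid synthesis, tRNA charging enzymes and the factor CHOP, the product of DDIT3.

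The 12 libraries held 30410377 to 46490312 reads assigned to genes, and 19797 to 23310 genes had a read. Defining markers fitted the labels: 11 duct epithelium genes summed to 2471 to 4640 FPKM in HPDE libraries and to 4.76 to 8.88 FPKM in HPNE libraries. The sum over a mesenchymal list of 11 genes was 10866 to 14789 FPKM in HPNE and 131 to 188 FPKM in HPDE. That list also counts TERT, the telomerase gene that HPNE carries, at 119 to 443 FPKM in HPNE. FN1 alone made up 5747 to 7232 FPKM there. Markers of immune, endothelial, and acinar or islet cells summed to at most 2.08, 1.53 and 0.0336 FPKM in any of the 12 libraries. Replicates of HPDE differed by a root mean square of 0.114 to 0.161 on the log2 scale. In HPNE residual medium, replicates 1 and 2 differed by 0.129, while replicate 3 lay 0.437 and 0.440 from them. In HPNE PANC-1 EV, replicates 2 and 3 differed by 0.155 and replicate 1 lay 0.295 and 0.341 from them. In HPNE fresh medium, replicates 1 and 2 differed by 0.14 and replicate 3 lay 0.31 and 0.32 from them. For HPNE PPCL-68 EV, replicates 2 and 3 differed by 0.14 and replicate 1 lay 0.33 from each. Some results are given with and without HPNE residual medium replicate 3 or HPNE PANC-1 EV replicate 1.

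All tests below are from limma on log2(FPKM + 1), with adjusted p-values from the Benjamini-Hochberg method over the 10483 genes and a threshold of 0.05. The line difference passed for 1908 genes, 18.2% of those tested, with 787 more positive in HPDE (7.51%) and 1121 more negative (10.7%). Of these, 161 genes (1.54%) had a line difference of 1 or more in size, in log2 units. In HPDE alone 4765 genes changed with PANC-1 EV (45.5%), of which 2230 rose (21.3%) and 2535 fell (24.2%). In HPNE 4552 genes changed (43.4%), with 2310 higher (22%) and 2242 lower (21.4%). A total of 1170 genes rose in both lines (11.2%), 1134 fell in both (10.8%) and 215 changed in opposite directions (2.05%). The split of the 1908 genes depended on the scaling: with median-of-ratios size factors it was 1136 more positive and 904 more negative. Without HPNE residual medium replicate 3 the line difference passed for 3514 genes, 1984 more positive and 1530 more negative. The HPDE and HPNE counts rest on a spread estimated over both lines. With each line fitted alone they were 6866 in HPDE and 2598 in HPNE.

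The 1908 genes fell into classes by what each line did on its own. In 783 of them the EV effect passed in HPDE only, and in 621 in HPNE only, with the spread shared by both lines. Both lines changed the same way in 251, with the larger change in HPDE for 180 and in HPNE for 71. In 215 the directions were opposite, and 80 of these rose in HPDE and fell in HPNE, while 135 did the reverse. In the other 38 genes neither line's own effect passed. FPKM counts each gene relative to its library's total, so a change in a gene's amount per cell cannot be told apart from a change in the rest of the library.

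**Figure D1:**
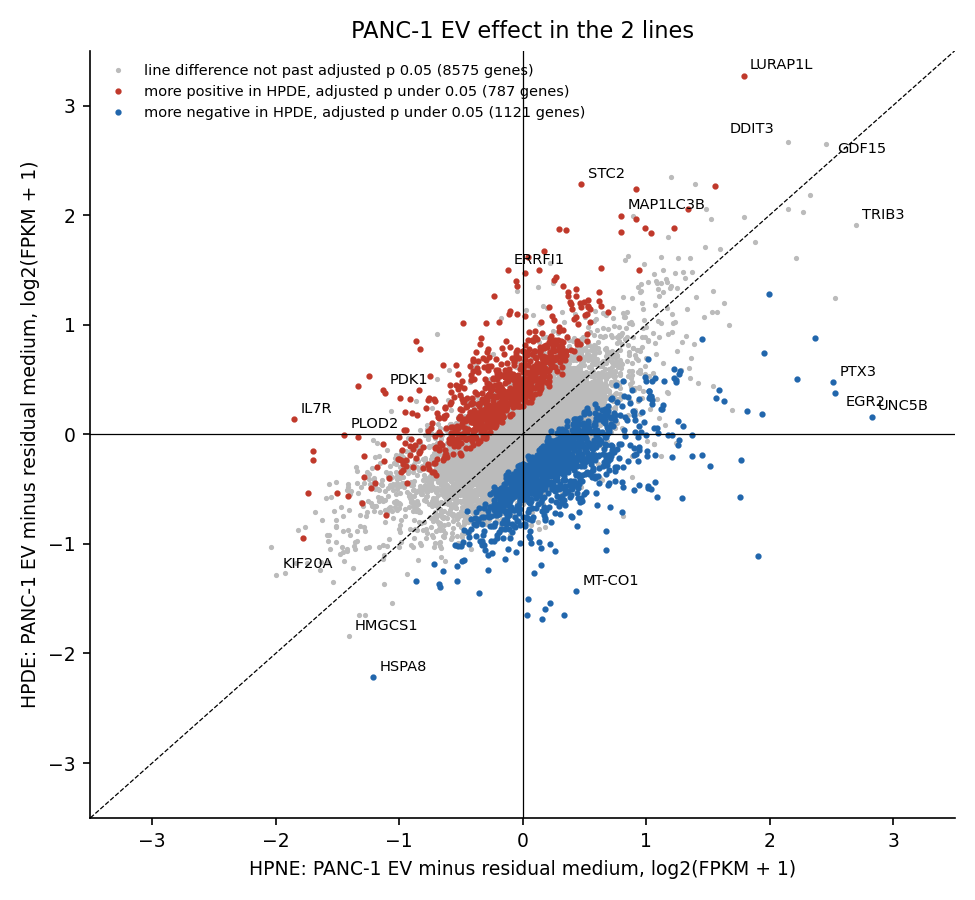
PANC-1 EV minus residual medium for 10483 genes, with HPNE on the horizontal and HPDE on the vertical axis, both in log2(FPKM + 1); the dashed line marks equal effects. Red points (787) and blue points (1121) are genes whose line difference passed an adjusted p of 0.05, and the named genes LURAP1L, UNC5B, PTX3 and IL7R lie far from the dashed line while DDIT3 and GDF15 lie near it.

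The ATF4 and CHOP branch rose in both lines. Of 30 tested genes of this branch, 29 rose in HPDE and 27 in HPNE, with medians of 1.10 and 1.11 against -0.04 and 0.01 over all genes. DDIT3 (hg19 chr12:57910371-57914300), which encodes CHOP, was 6.03, 7.16 and 8.99 FPKM in HPDE with residual medium and 50.5, 52.0 and 53.2 with PANC-1 EV. In HPNE it was 3.90, 4.43 and 10.3 FPKM and 30.3, 28.5 and 27.7. All 6 EV libraries lay above all 6 residual medium libraries. The line difference for DDIT3 was 0.52 ± 0.37 (SE), with an adjusted p of 0.343.

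GDF15, a stress-induced cytokine, rose from 1.33 ± 0.270 to 13.6 ± 1.08 FPKM in HPDE and from 9.33 ± 3.55 to 53.9 ± 4.996 FPKM in HPNE (mean ± SD, n = 3 libraries). Its line difference was 0.18 (adjusted p = 0.703), and -0.08 to 0.72 over 20 alternative settings, without passing in any. At its low level in HPDE residual medium, log2(FPKM + 1) understates the rise. SLC7A11, the cystine transporter, rose by 2.18 and 2.33 on the log2 scale in HPDE and HPNE. SESN2, an inhibitor of mTORC1 signalling, rose by 2.06 and 2.15, and PPP1R15A, which directs dephosphorylation of eIF2alpha, by 1.98 and 1.79. Of the 30 genes, 4 had a line difference that passed, all more positive in HPDE. Over all genes 7.51% passed in this direction, and the list's median line difference was 0.13. The same list against fresh medium gave 6 more positive and 2 more negative, with a median of 0.40.

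The call for this branch turned on 1 library. Its mean log2(FPKM + 1) in HPNE residual medium was 4.30, 4.42 and 5.22 in replicates 1, 2 and 3, against 5.58, 5.91 and 5.98 with PANC-1 EV. Replicate 3 thus lay between the other controls and the EV libraries. In HPDE the means were 4.69, 4.75 and 4.74 with residual medium and 6.02, 6.05 and 6.06 with EV. Without HPNE residual medium replicate 3, 3 genes of the branch were more positive and 10 more negative in HPDE, with a median of -0.20. TRIB3, a pseudokinase that binds ATF4, went from 13.2, 15.3 and 59.4 FPKM in HPNE residual medium to 151, 156 and 159 with EV, and from 114, 115 and 113 to 403, 446 and 443 in HPDE. Its line difference was -0.79 with an adjusted p of 0.252, and -1.46 with 0.000216 without that replicate. ATF4 itself had -0.42 (adjusted p = 0.0199) and SESN2 -0.42 (adjusted p = 0.026) in that setting, both short of the threshold with all libraries.

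Promoter sequence is shown for 3 genes of the shared response, 1 ATF4 target, 1 tRNA synthetase and 1 chaperone, because each holds the element of the factor known to act on its group. The sequences are the 250 bases before the transcription start from RefSeq on GRCh38.p14, a build other than the hg19 of the deposited tables, and read 5′ to 3′ along the gene. In ASNS and AARS capitals mark TGATGAAA or TGATGCAA, forms of the composite element of ATF4 and CEBP proteins, found on either strand. In HSPA8 they mark the heat shock core GAANNTTC. ASNS also holds a heat shock core, GAAACTTC, which overlaps its ATF4 form and is not marked. In AARS the capitals are the element read on the opposite strand.
ASNS promoter, chr7:97872409-97872658, minus strand: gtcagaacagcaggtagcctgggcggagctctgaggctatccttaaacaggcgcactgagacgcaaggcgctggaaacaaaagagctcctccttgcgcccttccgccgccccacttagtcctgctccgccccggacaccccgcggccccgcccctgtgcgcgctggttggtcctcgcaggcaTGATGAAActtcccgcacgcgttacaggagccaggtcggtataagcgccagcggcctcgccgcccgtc
AARS promoter, chr16:70289507-70289756, minus strand: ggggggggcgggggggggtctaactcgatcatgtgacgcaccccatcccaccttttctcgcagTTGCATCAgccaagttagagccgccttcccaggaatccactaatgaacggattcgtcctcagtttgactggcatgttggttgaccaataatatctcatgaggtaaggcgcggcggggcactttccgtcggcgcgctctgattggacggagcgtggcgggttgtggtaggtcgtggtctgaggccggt
HSPA8 promoter, chr11:123062137-123062386, minus strand: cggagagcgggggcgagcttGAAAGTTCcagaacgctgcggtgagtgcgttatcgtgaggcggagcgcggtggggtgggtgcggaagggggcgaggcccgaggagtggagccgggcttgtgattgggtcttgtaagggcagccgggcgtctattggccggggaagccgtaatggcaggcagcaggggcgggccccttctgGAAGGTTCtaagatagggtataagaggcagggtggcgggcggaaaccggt

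The ASNS element began at -68 and the AARS element at -187, and the HSPA8 cores at -230 and -50 from the start. Over windows that also hold the 50 bases after the start, an ATF4 form was in 6 of 16 matched synthetase promoters, in 3 of 25 matched promoters of the ATF4 branch and in 1.96% of all 35116 RefSeq promoters. The heat shock core was in 8 of 22 matched chaperone promoters and in 6.77% of all. These matches describe letters in a window and no binding was measured.

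Beside the shared rise, single ATF4 targets moved further in HPDE. STC2 (chr5:172741716-172756506), a secreted glycoprotein induced by endoplasmic reticulum stress, was 12.2, 13.6 and 14.2 FPKM in HPDE residual medium and 68.9, 66.1 and 70.6 with EV. HPNE had 197, 207 and 294 and 205, 371 and 426 FPKM, with overlapping groups. STC2 thus had a line difference of 1.80 ± 0.29 (adjusted p = 0.000285). SLC38A2, which carries small neutral amino acids, rose by 1.88 in HPDE and 0.99 in HPNE, a line difference of 0.89 (adjusted p = 0.000885). The other 2 called members were CTH, which makes cysteine, at 0.71 and PYCR1, which makes proline, at 0.66. STC2 did not pass with fresh medium as control, at 0.59 (adjusted p = 0.152), nor did PYCR1 at 0.20, while SLC38A2 at 0.82 and CTH at 0.83 did.

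Among 20 cytosolic aminoacyl-tRNA synthetases, the enzymes that charge tRNA, 12 rose in HPDE and 11 in HPNE, and 2 and 3 fell. AARS, for alanine, went from 65.0, 72.9 and 74.4 to 172, 175 and 179.8 FPKM in HPDE and from 56.6, 55.9 and 89.7 to 96.6, 105 and 103 in HPNE. AARS had a line difference of 0.68 ± 0.18 (adjusted p = 0.0139), and 0.46 without HPNE residual medium replicate 3. EPRS, for glutamate and proline, had 0.52 (adjusted p = 0.00382). The other 18 synthetases had no line difference that passed with all libraries, and over all genes 18.2% passed. When fresh medium was the control, the list had 3 more positive and 2 more negative. AARS passed there at 0.92 and EPRS, at 0.13, did not.

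Outside the listed ATF4 targets, LURAP1L (chr9:12775020-12822130) had the highest EV rise in HPDE among the named genes, from 1.52, 1.77 and 1.84 to 24.6, 24.8 and 26.2 FPKM. In HPNE it went from 11.5, 12.2 and 25.9 to 54.6, 57.2 and 56.1 FPKM, and the line difference was 1.48 ± 0.29 (adjusted p = 0.0013). MAP1LC3B, whose product LC3B coats autophagosome membranes, was 34.8, 37.9 and 39.0 FPKM in HPDE residual medium and 150.3, 154 and 149.6 with EV. In HPNE the values were 34.9, 36.8 and 42.2 and 57.0, 71.4 and 72.1 FPKM. Groups did not overlap in either line, and the line difference was 1.20 ± 0.16 (adjusted p = 4.96e-05). It was the only 1 of 17 tested autophagy genes whose line difference passed with all libraries, while 9 rose in each line. Among all genes the line difference passed for 18.2%. LURAP1L and MAP1LC3B also passed against fresh medium, at 2.62 and 1.71, where the autophagy list had 7 more positive and 1 more negative.

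**Figure D2:**
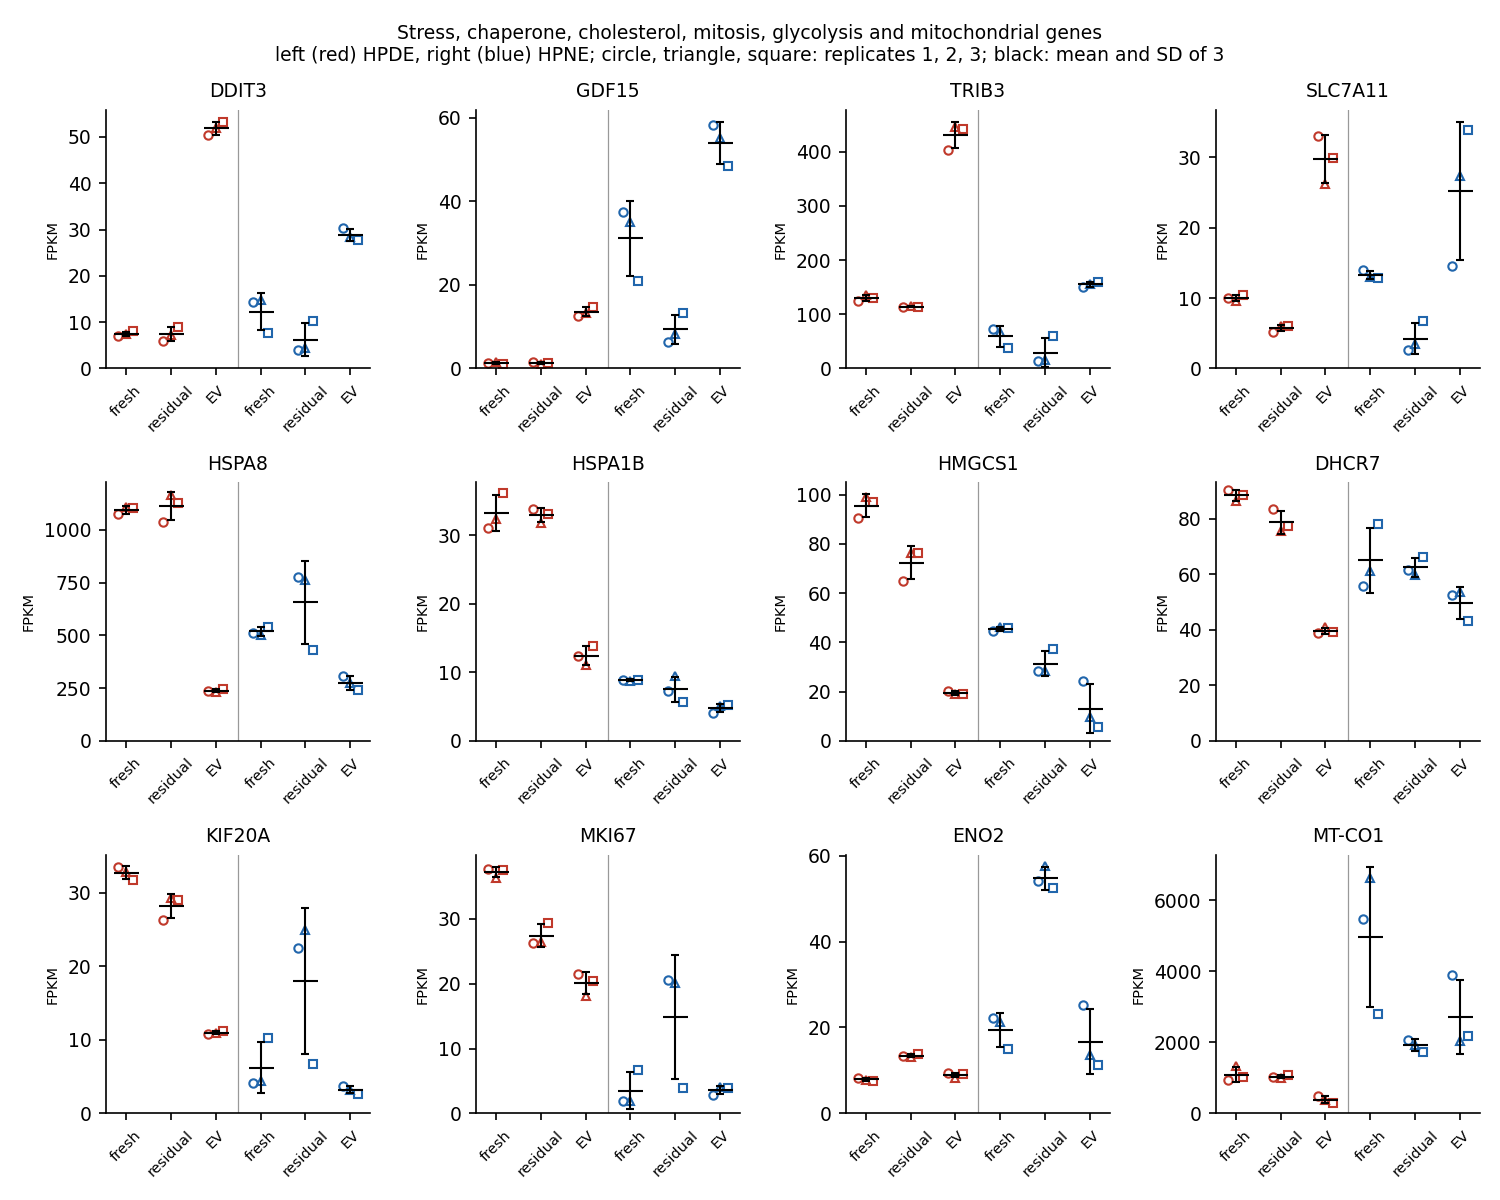
FPKM of 12 genes in each of 3 libraries of fresh medium, residual medium and PANC-1 EV, for HPDE (red, left) and HPNE (blue, right); symbols mark replicates 1 to 3, and the black lines give the mean and SD. DDIT3, GDF15, TRIB3 and SLC7A11 stand above residual medium in all EV libraries of both lines, and HPNE residual medium replicate 3 lies near the EV libraries for KIF20A and MKI67.

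Among 27 tested genes of endoplasmic reticulum folding and degradation, 9 were more positive in HPDE and 1 more negative, with a median line difference of 0.29. Over all genes the shares were 7.51% and 10.7%. In HPDE 10 rose and 3 fell, and in HPNE 4 rose and 9 fell. ERO1L (chr14:53106634-53162618), the oxidase that drives disulfide formation, was 62.6, 71.4 and 71.2 FPKM in HPDE residual medium and 90.5, 83.2 and 83.5 with EV. In HPNE it was 52.8, 52.4 and 52.7 and 34.6, 25.2 and 23.9. It rose in HPDE and fell in HPNE, and the line difference was 1.23 ± 0.14 (adjusted p = 1e-05).

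DNAJB9, a cochaperone of BiP, was 4.93, 5.06 and 4.93 FPKM in HPDE residual medium and 12.4, 11.4 and 11.6 with EV, against 13.5, 13.5 and 15.0 and 14.2, 12.8 and 11.8 in HPNE. It rose only in HPDE by its own test, and the line difference itself passed at 1.21 ± 0.14 (adjusted p = 1.06e-05). XBP1, the factor spliced by IRE1, rose in both lines, from 56.9 ± 1.56 to 134 ± 7.06 FPKM in HPDE and from 66.2 ± 4.58 to 103 ± 13.2 in HPNE, and by 0.60 ± 0.12 more in HPDE (adjusted p = 0.00134). EDEM1 at 0.49 and HSPA13 at 0.44 were also more positive in HPDE, and DERL1 at -0.47 was the 1 member more negative. HSPA5, which encodes BiP, had 0.36 with an adjusted p of 0.156, and 0.47 with 0.0406 without HPNE residual medium replicate 3. This list depended on the control as well. Of its 27 members, 18 were higher in HPNE residual medium than in HPNE fresh medium and 2 lower. The line difference against fresh medium counted 3 more positive and 1 more negative, with a median of -0.10. DNAJB9 at 1.57, XBP1 at 0.63 and DERL1 at -0.49 passed there with the same sign, and ERO1L at 0.25, EDEM1 at 0.12 and HSPA13 at 0.15 did not pass.

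Genes that rose in one line and fell in the other are described from the 8 each way with the largest line difference and no overlap between EV and residual medium libraries in either line. The groups did not overlap in 68.4% of all genes in HPDE and in 38.2% in HPNE.

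DUSP4, a nuclear phosphatase of ERK, fell from 26.6, 24.7 and 24.6 to 16.4, 15.8 and 18.0 FPKM in HPDE and rose from 4.83, 4.46 and 3.60 to 9.24, 11.3 and 10.2 FPKM in HPNE. PLK2, a polo-like kinase, fell from 41.6 ± 1.06 to 19.5 ± 0.733 FPKM in HPDE and rose from 2.03 ± 0.180 to 3.85 ± 0.0801 in HPNE. KITLG, the ligand of the KIT receptor, went from 2.19, 2.53 and 2.05 to 1.47, 1.25 and 1.29 FPKM in HPDE and from 9.01, 10.1 and 7.56 to 16.6, 16.7 and 15.7 in HPNE. The line differences were -1.65, -1.73 and -1.29, with adjusted p-values of 1.25e-05, 2.44e-05 and 1.28e-06. With fresh medium as control, that of KITLG was -0.93 (adjusted p = 3.83e-05), that of DUSP4 -0.53 (0.0593) and that of PLK2 -0.02 (0.959). Of these 3, KITLG passed against fresh medium in the same direction.

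TIMP3, an inhibitor of matrix metalloproteinases, was 18.0, 15.3 and 15.6 FPKM in HPDE residual medium and 11.0, 11.7 and 11.1 with EV, and 0.648, 0.610 and 0.757 against 3.22, 1.92 and 2.15 in HPNE. Its line difference of -1.51 turned to 0.71 (adjusted p = 0.00583) relative to fresh medium, where HPNE had 4.93, 4.51 and 3.90 FPKM. APOL1, an apolipoprotein, had -1.51, PLEKHF1, an endosomal and lysosomal protein, -1.51, and SLC6A6, the taurine transporter, -1.24. Against fresh medium these 3 had 0.52, 0.11 and -0.39, and none passed.

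In the other direction, PDK1 (chr2:173420101-173489823), a kinase that inhibits pyruvate dehydrogenase, was 4.54, 4.85 and 5.07 FPKM in HPDE residual medium and 7.30, 6.74 and 6.06 with EV. The HPNE values were 12.2, 12.5 and 14.5 and 7.29, 5.36 and 3.97 FPKM. It rose in HPDE and fell in HPNE, with a line difference of 1.53 ± 0.19 (adjusted p = 1.7e-05). RGS3, which limits G protein signalling, went from 4.48, 4.30 and 4.68 to 8.23, 7.44 and 7.88 FPKM in HPDE and from 10.7, 10.8 and 10.6 to 7.72, 7.96 and 7.83 in HPNE. Its line difference was 1.09 (adjusted p = 1.1e-07) and stayed positive against fresh medium at 0.76 (adjusted p = 7.91e-06).

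IL32, a cytokine, rose from 24.1, 21.7 and 22.9 to 28.2, 30.5 and 28.0 FPKM in HPDE and fell from 18.5, 17.8 and 12.9 to 10.6, 8.74 and 9.03 FPKM in HPNE. In fresh medium HPNE had 1.45, 1.66 and 1.00 FPKM, and the line difference of 1.05 turned to -1.02 (adjusted p = 0.000294) with that control. KANK1, a regulator of the actin cytoskeleton, had 1.24, NFXL1 1.06, FAM216A 1.04 and TBC1D4, a Rab GTPase-activating protein of glucose transport, 1.01. KANK1 relative to fresh medium had 0.54, NFXL1 0.62 and TBC1D4 0.85, which passed, and FAM216A 0.26, which did not.

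**Figure D3:**
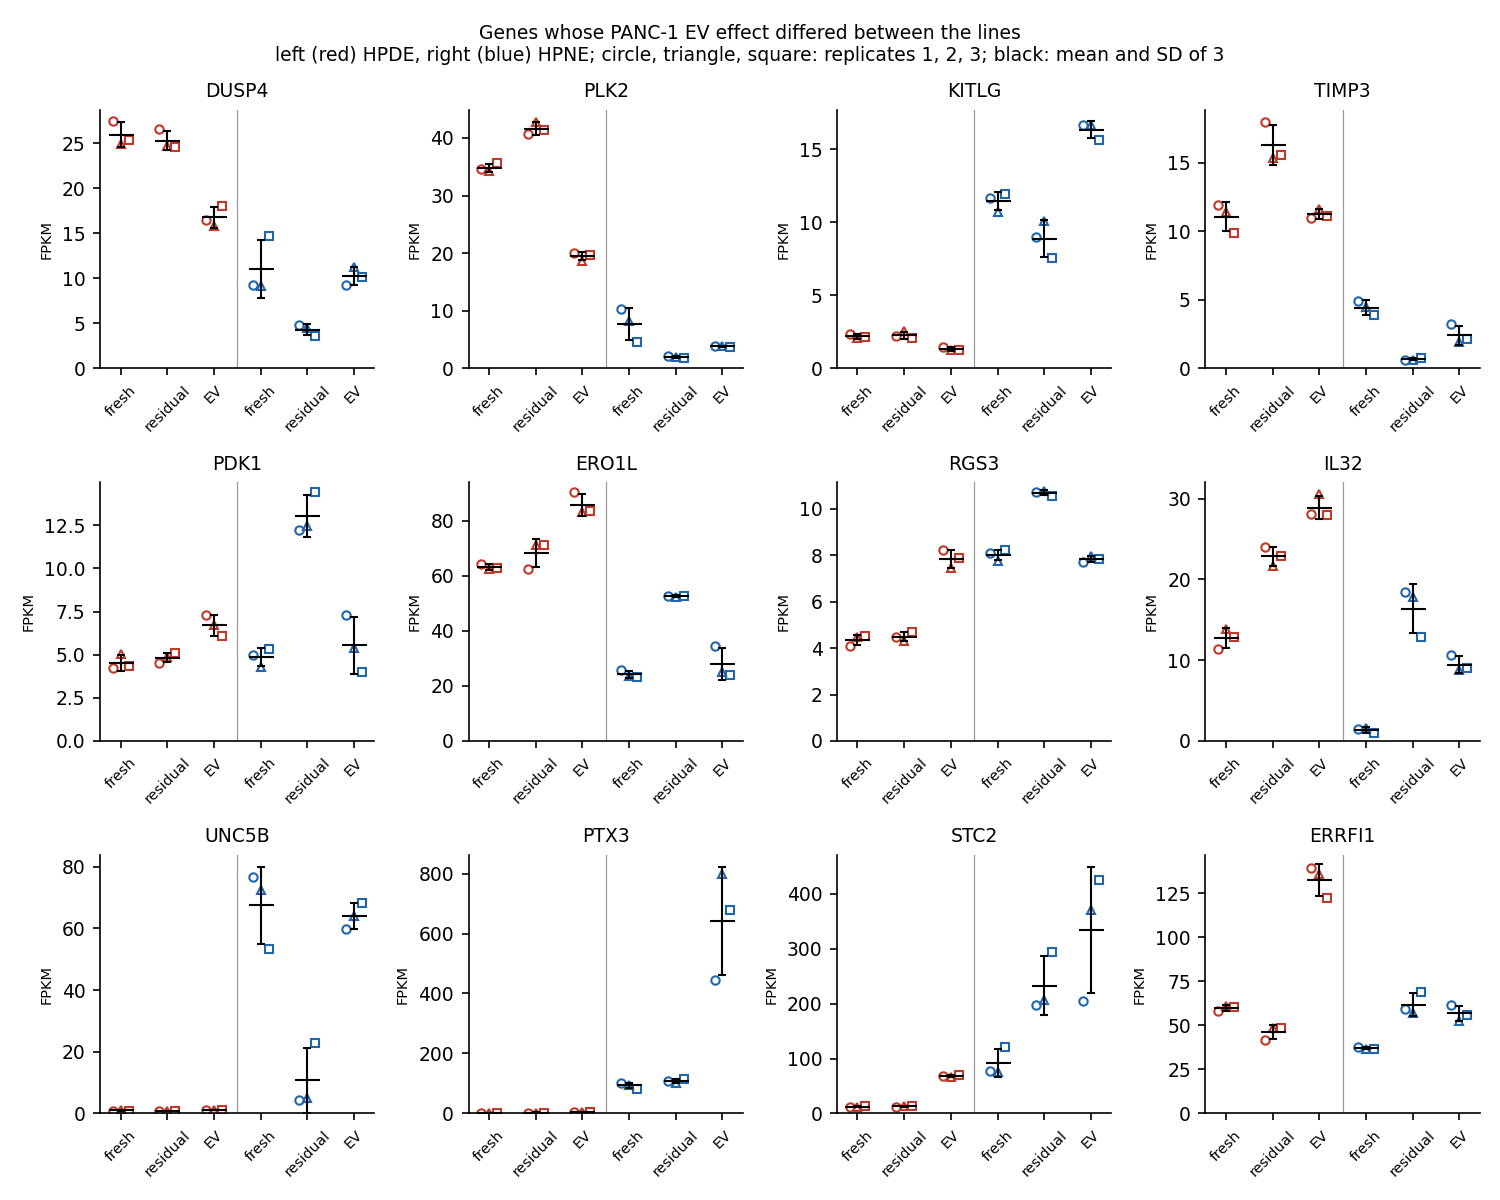
FPKM of 12 genes with a line difference, in each of 3 libraries of fresh medium, residual medium and PANC-1 EV, for HPDE (red, left) and HPNE (blue, right), with the mean and SD in black. DUSP4, PLK2, KITLG and TIMP3 fell in HPDE and rose in HPNE relative to residual medium, and PDK1, ERO1L, RGS3 and IL32 did the reverse; in HPNE, PDK1, ERO1L and UNC5B had fresh medium values near those of EV.

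The largest line differences also held genes whose EV effect passed in 1 line and not in the other. UNC5B (chr10:72972327-73062621), a netrin receptor, was 0.939, 0.856 and 0.867 FPKM in HPDE residual medium and 1.13, 1.01 and 1.20 with EV. HPNE had 4.30, 5.02 and 23.0 and 59.9, 64.0 and 68.4, and the line difference was -2.67 ± 0.46 (adjusted p = 0.000561). Without HPNE residual medium replicate 3 it was -3.36. HPNE had 76.5, 72.4 and 53.3 FPKM in fresh medium, and with that control the line difference was 0.16 (adjusted p = 0.835). The HPNE residual medium libraries were below both other HPNE groups.

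PTX3 (chr3:157154578-157161417), a soluble pattern recognition protein of the pentraxin family, kept its difference under both controls. It was 107, 103 and 115 FPKM in HPNE residual medium, 101, 96.1 and 82.8 in fresh medium and 446, 799 and 678 with EV. In HPDE it was 1.52, 2.96 and 2.95 FPKM in residual medium and 4.07, 3.86 and 3.33 with EV. The line difference was -2.04 ± 0.30 (adjusted p = 0.000151) against residual medium and -2.14 (adjusted p = 8.44e-05) against fresh medium. EGR2, a zinc finger factor, rose in HPNE from 0.641 ± 0.587 to 8.85 ± 5.05 FPKM and had a line difference of -2.16. CYGB, a globin, had -2.33, EDNRA, an endothelin receptor, -2.00, JUP, a desmosome and adherens junction protein, -1.81 and OLFM2 -1.76. Against fresh medium, CYGB, EDNRA and OLFM2 did not pass, and JUP passed in the other direction at 1.21.

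On the positive side, ERRFI1 (chr1:8064464-8086368), a feedback inhibitor of the EGF receptor, was 41.5, 48.4 and 48.8 FPKM in HPDE residual medium and 139, 136 and 123 with EV. HPNE had 59.4, 57.0 and 69.2 and 61.5, 52.6 and 56.2, with overlapping groups. The line difference was 1.62 ± 0.11 (adjusted p = 2.49e-08) and 0.53 (adjusted p = 0.00182) against fresh medium. ARRDC4, an arrestin-domain protein, went from 6.48, 7.97 and 8.38 to 32.8, 30.6 and 28.1 FPKM in HPDE and from 1.89, 1.58 and 2.54 to 2.88, 2.73 and 2.36 in HPNE. The values of the line difference were 1.58 against residual and 1.13 against fresh medium, and both passed. SAA1, an acute-phase protein whose reads may be shared with its near-identical copy SAA2, had 1.77 and 1.61, which passed as well.

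IL7R, the receptor for interleukin-7, had the largest positive line difference of the named genes. It fell in HPNE from 18.7, 17.9 and 10.2 to 1.89, 4.66 and 4.44 FPKM, and it was 2.68, 2.56 and 2.46 and 2.77, 3.10 and 2.90 FPKM in HPDE. IL7R had a line difference of 1.99 ± 0.40 (adjusted p = 0.00185), against -0.41 (adjusted p = 0.492) with fresh medium as control. The others were HAS2, a hyaluronan synthase, at 1.78, G0S2, a lipolysis inhibitor, at 1.61, CXCL3 at 1.58, AK4, a mitochondrial adenylate kinase, at 1.55, FGF2 at 1.51 and LAMB3, a chain of laminin-332, at 1.5. With the other control, G0S2 had -1.86 (adjusted p = 0.000145) and CXCL3 -1.66 (adjusted p = 0.00611), the opposite direction. HAS2, AK4, FGF2 and LAMB3 did not pass there.

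Heat shock chaperones fell in both lines relative to residual medium. Of 23 tested, 16 fell and 1 rose in HPDE and 18 fell and 2 rose in HPNE, with medians of -0.42 in each. HSPA8 (chr11:122928197-122933938), the constitutive cytosolic HSP70 which has 2 heat shock cores in its promoter window, was 1038, 1167 and 1128 FPKM in HPDE residual medium and 238, 231 and 245 with EV. In HPNE it was 775, 765 and 429.6 and 309, 272 and 242 FPKM. The fall was larger in HPDE by a line difference of -1.0 ± 0.22 (adjusted p = 0.00301), and of -0.72 without HPNE residual medium replicate 3. HSPA1B had -0.81, and its reads may be shared with the near-identical HSPA1A. The cochaperones DNAJB1 at -0.75 and DNAJA1 at -0.66 also fell further in HPDE, and DNAJB4 at 0.75 fell in HPNE. DNAJB4 fell short of the threshold in 10 of 20 alternatives. With fresh medium as the control 12 members fell and 2 rose in HPDE, while in HPNE 7 fell and 3 rose with a median of -0.05. The line difference then counted 0 more positive and 10 more negative, and HSPA8 had -1.27.

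Proteasome subunits fell alongside with the same control, 22 of 25 in HPDE and 18 of 25 in HPNE, with medians of -0.40 and -0.33. The line difference passed for 3, all more negative in HPDE: PSMB2 at -0.45, PSMA3 at -0.36 and PSMC2 at -0.25. That is 3 of 25 members, near the 10.7% of all genes in this direction. Without HPNE residual medium replicate 3 the proteasome counts were 6 more positive and 4 more negative, and the heat shock counts 5 and 5 in place of 1 and 4. Those 1 and 4 of 23 chaperones stand beside 7.51% and 10.7% of all genes. In HPNE, residual medium was above fresh medium for 21 of the 25 subunits. Against fresh medium 16 fell in HPDE, but 1 fell and 3 rose in HPNE, with a median of 0.01, and the line difference counted 0 more positive and 10 more negative. PSMB2, PSMA3 and PSMC2 passed there with the same sign.

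Cholesterol synthesis and uptake genes fell in both lines, 19 of 23 in HPDE and 16 of 23 in HPNE, with no member rising. The medians were -0.77 and -0.58. HMGCS1, the synthase that feeds HMG-CoA reductase, was 64.8, 76.3 and 76.1 FPKM in HPDE residual medium and 20.2, 18.9 and 19.2 with EV, and 28.6, 28.2 and 37.3 against 24.3, 9.70 and 5.55 in HPNE. The HPNE EV libraries of HMGCS1 spread widely, with replicate 1 highest and replicate 3 lowest. The line difference passed for 3 members, all falling further in HPDE, among them DHCR7 at -0.65 and MSMO1 at -0.47, enzymes of late sterol synthesis. That is 3 of 23, beside 10.7% of all genes in this direction. MSMO1 fell short of the threshold in 15 of 20 alternatives. Without HPNE PANC-1 EV replicate 3, 11 members were more negative in HPDE in place of 3. The fall was also present against fresh medium, in 19 members in HPDE and 19 in HPNE, and the line difference counted 0 more positive and 6 more negative.

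LXRs are nuclear receptors that sense sterols. Among 9 tested genes that encode them or are their targets in lipid handling, 4 rose in HPNE and 1 rose and 1 fell in HPDE. ABCA1, the efflux transporter, went from 2.301, 2.72 and 10.3 to 47.4, 24.9 and 20.3 FPKM in HPNE and from 0.869, 1.06 and 0.906 to 4.21, 3.25 and 3.38 in HPDE. HPNE had 56.6, 56.9 and 28.9 FPKM in fresh medium. Its line difference was -1.29 with an adjusted p of 0.0882, and -1.85 with 0.00201 without HPNE residual medium replicate 3. APOE was the 1 member that passed with all libraries, at -0.77 (adjusted p = 0.0253), where 18.2% of all genes passed. It fell short of the threshold in 7 of 20 alternatives. Both genes turned with the other control, where ABCA1 had 2.07 (adjusted p = 0.00849) and APOE 0.92 (0.00871), and the list had 3 more positive and 0 more negative.

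Glycolysis and hypoxia-response genes gave the most positive counts of the 19 lists. Of 26 tested, 14 were more positive in HPDE and 1 more negative, with a median line difference of 0.62, beside 7.51% and 10.7% of all genes. In HPDE 4 rose and 13 fell with a median of -0.24, and in HPNE 2 rose and 20 fell with a median of -0.68. ENO2, an enolase, was 54.0, 57.6 and 52.5 FPKM in HPNE residual medium and 25.3, 13.5 and 11.2 with EV, and 13.4, 13.1 and 13.8 against 9.35, 8.32 and 9.17 in HPDE. It fell in both lines, and the line difference was 1.20 ± 0.29 (adjusted p = 0.00758). LDHA, which makes lactate, fell by 0.56 in HPDE and 1.41 in HPNE, and PGK1 by 0.45 and 1.20. VEGFA, the angiogenic growth factor, rose by 1.52 in HPDE and 0.63 in HPNE. SLC2A3, a glucose transporter, was the 1 member more negative in HPDE, at -0.53.

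The glycolysis result depended on the control. The list's mean log2(FPKM + 1) in HPNE was 5.79, 5.78 and 5.75 in fresh medium, 6.47, 6.46 and 6.69 in residual medium and 6.0, 5.79 and 5.74 with EV. HPNE residual medium stood above both other groups, and 21 of 26 members were higher in it than in fresh medium, where 27.2% of all genes were higher. In HPDE the means were 5.64, 5.68 and 5.66, 5.83, 5.79 and 5.80 and 5.69, 5.72 and 5.71. Relative to fresh medium 3 members were more positive and 7 more negative in HPDE, with a median of -0.15. The members more positive against residual medium numbered 10 to 18 over the other settings run, 18 of them with size factors.

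**Figure D4:**
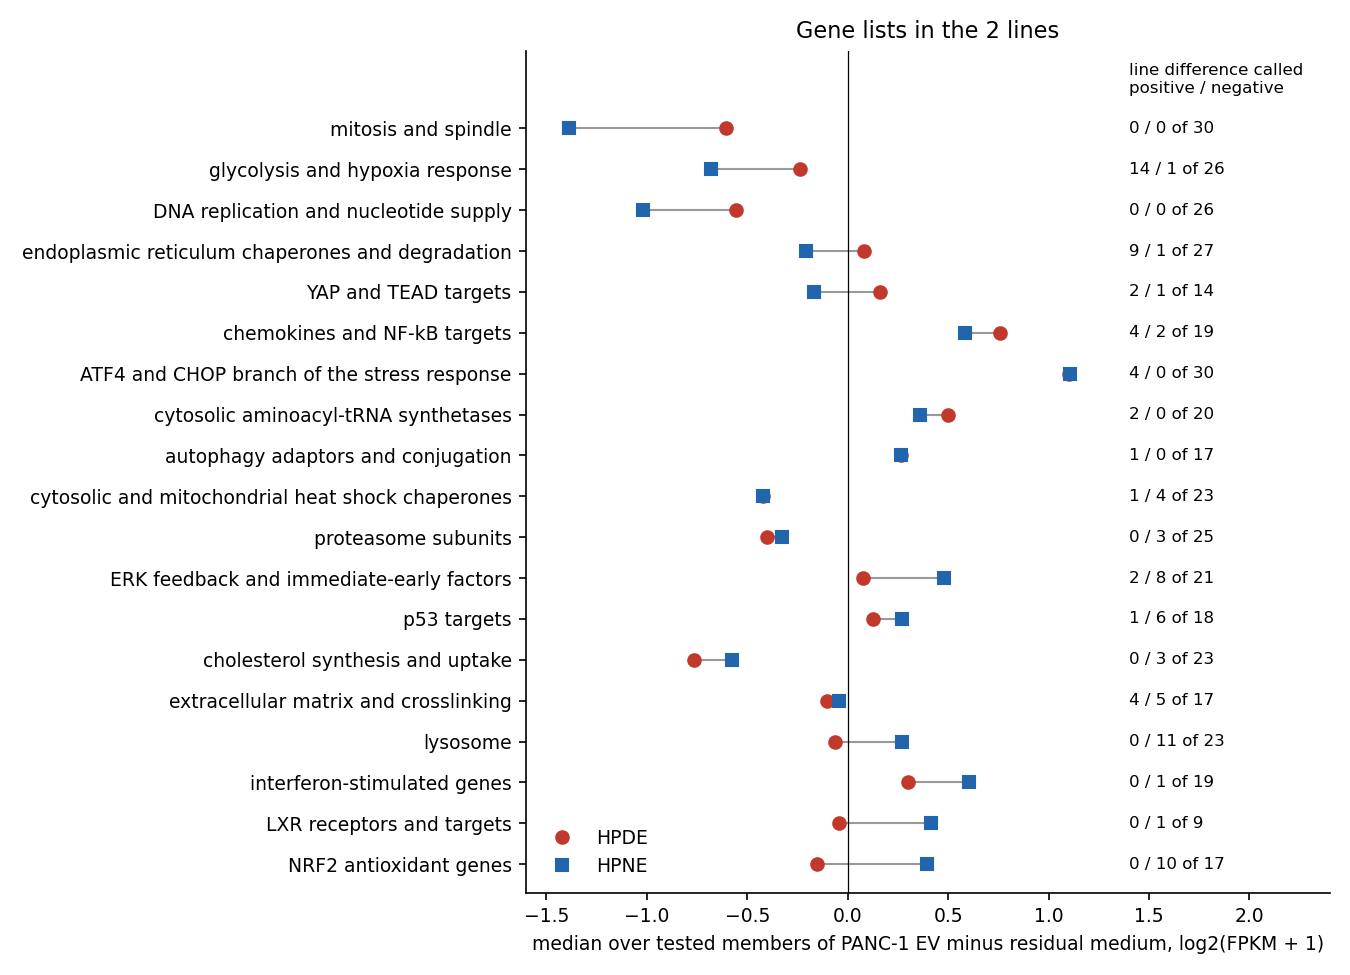
Median over tested members of PANC-1 EV minus residual medium in log2(FPKM + 1), for 19 gene lists in HPDE (red circles) and HPNE (blue squares), ordered by the median line difference; the numbers at the right count members whose line difference passed, positive then negative. The ATF4 branch has medians of 1.10 and 1.11, while the NRF2 and lysosome lists have HPDE medians below 0 and HPNE medians above 0.

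Lysosome genes went the other way. Of 23 tested, none was more positive in HPDE and 11 were more negative, beside 7.51% and 10.7% of all genes. The median line difference was -0.30, and over the alternatives the negative count was 6 to 13. In HPDE 4 rose and 9 fell, and in HPNE 14 rose and 1 fell. NPC2 (chr14:74942895-74960880), which carries cholesterol out of the lysosome, fell from 84.7, 81.0 and 78.6 to 52.6, 53.03 and 57.1 FPKM in HPDE and rose from 66.5, 60.1 and 52.0 to 76.8, 95.5 and 73.1 in HPNE. For NPC2 the line difference was -1.03 ± 0.13 (adjusted p = 2.85e-05). CTSL1, which encodes the protease cathepsin L, rose in HPNE from 83.0, 92.0 and 77.1 to 133, 152 and 131 FPKM and had -0.91. CTSB, for cathepsin B, fell by 0.44 in HPDE, and PSAP, for the saposin precursor, rose by 0.47 in HPNE. Against fresh medium 6 members were more positive and 1 more negative. HPNE had list means of 5.92, 5.91 and 5.84 in fresh medium against 5.45, 5.40 and 5.42 in residual medium and 5.73, 5.76 and 5.62 with EV.

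NRF2 antioxidant genes gave a like count. Of 17 tested, 10 were more negative in HPDE and none more positive, beside 10.7% and 7.51% of all genes. The median was -0.37, and the negative count was 6 to 11 over the alternatives. In HPDE 3 rose and 8 fell, and in HPNE 11 rose and 1 fell. PIR, a redox-sensing nuclear protein, fell from 12.1, 11.3 and 9.96 to 6.77, 7.90 and 7.10 FPKM in HPDE and rose from 1.89, 2.77 and 2.44 to 3.18, 3.26 and 3.79 in HPNE, with a line difference of -0.95 (adjusted p = 0.000567). TKT, the transketolase of the pentose phosphate pathway, had -0.76. GCLM, a subunit of the glutathione synthesis enzyme, fell in HPDE and had -0.67 (adjusted p = 0.0187), and NQO1, a quinone reductase, rose in HPNE and had -0.60. The list means in HPNE were 5.78, 5.80 and 5.83 in fresh medium, 5.18, 5.30 and 5.21 in residual medium and 5.49, 5.62 and 5.63 with EV. Relative to fresh medium 3 members were more positive and 1 more negative in HPDE.

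**Figure D5:**
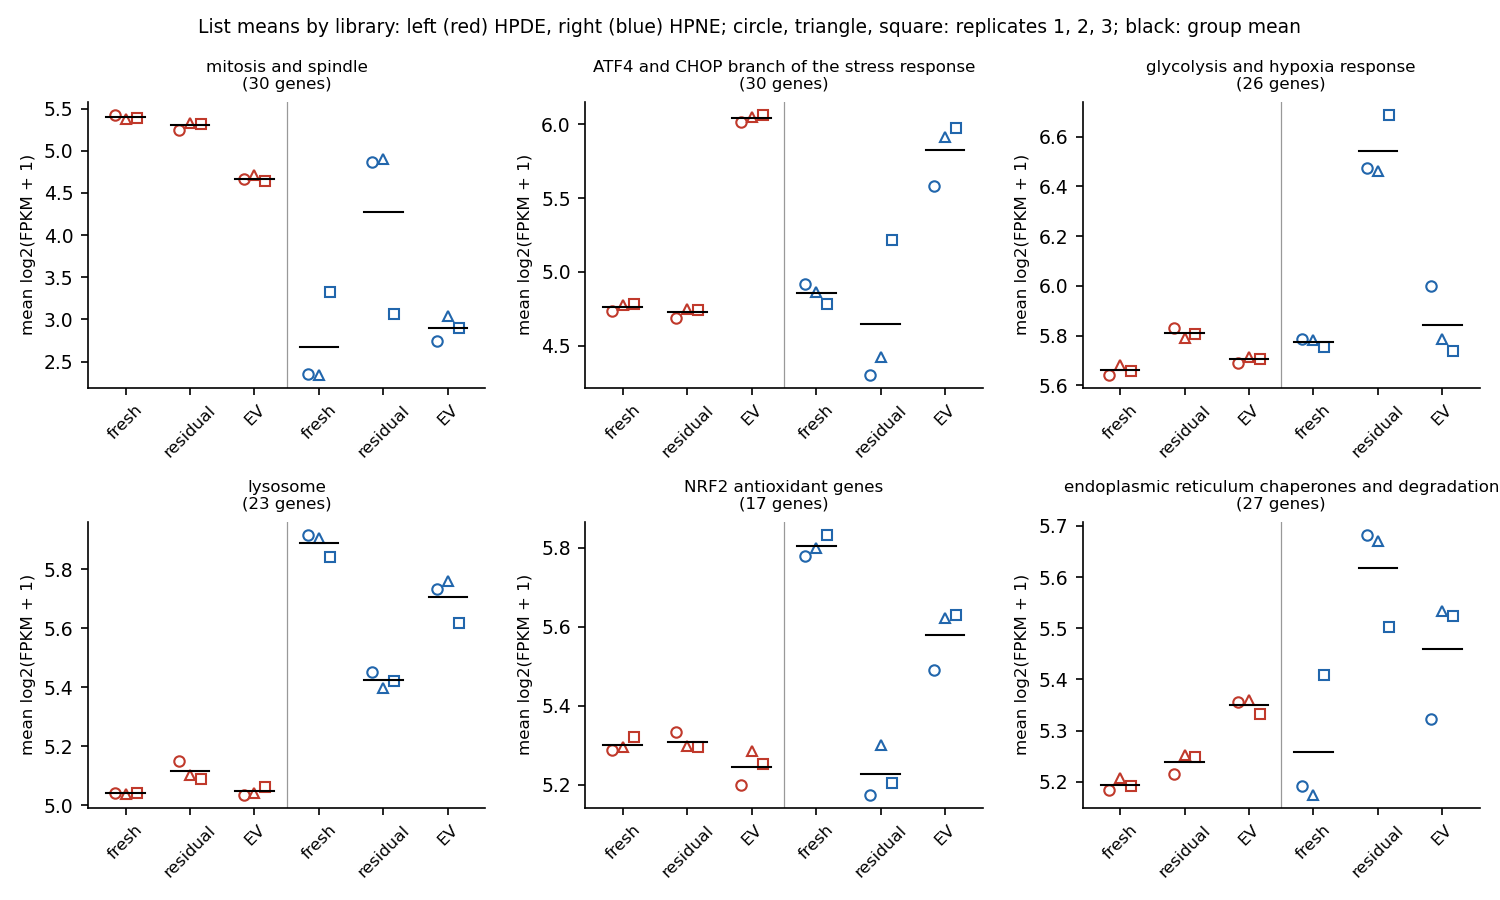
Mean log2(FPKM + 1) over the tested members of 6 gene lists in each library of fresh medium, residual medium and PANC-1 EV, for HPDE (red, left) and HPNE (blue, right); black lines are group means. In HPNE the residual medium libraries stand apart from fresh medium in glycolysis, lysosome and NRF2 genes, and replicate 3 of residual medium is low for mitosis and high for the ATF4 branch.

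Genes of ERK signalling and immediate-early response were tested as 21 members. Of these, 2 were more positive in HPDE and 8 more negative, with 7 rising and 3 falling in HPDE and 12 rising and none falling in HPNE. Among all genes tested, 7.51% were more positive and 10.7% more negative. The negative members included DUSP4 at -1.65, DUSP6, a cytosolic phosphatase of ERK, at -0.97, SPRY2 at -0.62 and JUN at -0.66. The positive ones were DUSP5, a nuclear ERK phosphatase, and PHLDA1. DUSP5 was 67.3, 66.0 and 72.4 FPKM in HPDE residual medium and 183, 177 and 193 with EV, and 43.4, 42.3 and 25.5 against 26.8, 49.5 and 60.9 in HPNE, with a line difference of 1.15 (adjusted p = 0.0201). PHLDA1 rose in both lines, by 1.85 in HPDE and 0.80 in HPNE, with 1.05 (adjusted p = 0.000125). Over the alternatives 4 to 8 members were more negative. The counts against fresh medium were 1 more positive and 7 more negative. PHLDA1 passed there at 1.10 and DUSP5, at -0.35, did not.

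Chemokines and NF-kB targets rose in both lines, 15 of 19 in HPDE and 12 of 19 in HPNE, with medians of 0.76 and 0.58. The line difference passed for 4 more positive in HPDE and 2 more negative, beside 7.51% and 10.7% of all genes. CCL20, a chemokine for dendritic cells and lymphocytes, was 26.4, 29.9 and 28.4 FPKM in HPDE residual medium and 64.6, 60.3 and 63.7 with EV, and 9.86, 9.74 and 10.5 against 10.5, 10.7 and 7.05 in HPNE. Its line difference was 1.23 ± 0.20 (adjusted p = 0.000421). NFKB2 had 0.79 and PTGS2, the inducible cyclooxygenase, 0.71. LIF, a cytokine of the interleukin-6 family, rose in HPNE from 49.0, 49.3 and 42.1 to 94.0, 137 and 122 FPKM and had -1.23, and IL1B had -0.90.

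With the other control the list turned. Relative to fresh medium 14 of 19 were more negative in HPDE and 1 more positive, with a median of -1.50, and 9.88% of all genes were more positive and 10.5% more negative in that contrast. IL8, the neutrophil chemokine now named CXCL8, was 2.31, 2.64 and 4.70 FPKM in HPNE fresh medium, 1799, 1818 and 859 in residual medium and 1109, 1658 and 1462 with EV. In HPDE it was 31.2, 36.5 and 37.3, 175, 226 and 226 and 357, 356 and 342. The HPNE residual medium and EV libraries overlapped, and both lay far above fresh medium. IL8 had a line difference of 0.78 (adjusted p = 0.0992) against residual medium, and 1.14 (0.00194) without HPNE residual medium replicate 3. CCL20 was among the genes that turned, at -0.97 (adjusted p = 0.00253).

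Of 19 interferon-stimulated genes, 8 rose and 1 fell in HPDE and 14 rose in HPNE. IRF1, a transcription factor of interferon responses, was 7.82, 8.81 and 14.4 FPKM in HPNE residual medium and 38.1, 30.1 and 31.5 with EV, and 15.2, 15.0 and 14.6 against 18.3, 19.8 and 18.0 in HPDE. It was the 1 member with a line difference that passed, at -1.33 ± 0.23 (adjusted p = 0.000554), where 18.2% of all genes passed. Without HPNE residual medium replicate 3, 7 members were more negative. Among 18 p53 targets 1 was more positive in HPDE and 6 more negative, beside 7.51% and 10.7% of all genes. CDKN1A, the inhibitor p21, rose in HPDE from 77.7, 72.7 and 74.6 to 116, 119 and 116 FPKM, against 205, 216 and 247 and 229, 238 and 219.9 in HPNE, and was the positive member at 0.59 (adjusted p = 0.000727). The negative ones included FDXR at -0.77, GADD45A at -0.72, ZMAT3 at -0.65 and TNFRSF10B, a TRAIL receptor, at -0.62. GADD45A fell short of the threshold in 13 of 20 alternatives. Both lists shifted with the control. Against fresh medium the interferon list had 5 more positive and 1 more negative, and IRF1 passed with the same sign at -0.88 (adjusted p = 0.0107). The p53 list had 7 more positive and 0 more negative there, with a median of 0.28 in place of -0.27, and CDKN1A had 1.48.

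Among 17 matrix genes 4 were more positive in HPDE and 5 more negative. PLOD2 (chr3:145787227-145881440), a lysyl hydroxylase of collagen crosslinking, was 432, 391 and 251 FPKM in HPNE residual medium and 116, 133 and 135 with EV, and 45.4, 48.4 and 47.7 against 47.8, 48.6 and 44.7 in HPDE. The line difference was 1.44 ± 0.19 (adjusted p = 4.51e-05). THBS1 at 1.15, P4HA2, a prolyl hydroxylase, at 0.80 and LAMB3 were the other positive members. The basement membrane collagens COL4A1 and COL4A2 rose in HPNE by 0.81 and 0.62, with line differences of -1.11 and -0.93. TGFBI at -1.14, SPARC at -0.79 and LAMC1 at -0.57 were the other negative ones. Of 14 YAP and TEAD targets 2 were more positive and 1 more negative, led by CRIM1 at 1.32. Beside these 2 lists, 7.51% of all genes were more positive and 10.7% more negative. With fresh medium as control the matrix list had 2 more positive and 3 more negative and the YAP list 1 more positive and 5 more negative, and neither PLOD2 at -0.14 nor CRIM1 at -0.81 passed.

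The simple-epithelium keratin KRT8 (chr12:53290977-53343738) fell in HPDE from 674, 641 and 656 FPKM to 192, 222 and 211, and it was 0.846, 0.665 and 2.92 and 3.60, 1.13 and 1.48 FPKM in HPNE. For KRT8 the line difference was -1.99 ± 0.44 (adjusted p = 0.00358). The summed level of the 11 duct markers went from 4115 to 4640 FPKM in HPDE residual medium to 2471 to 2793 with EV. Most of that sum was keratins, and KRT19 went from a range of 974 to 1139.7 to 387 to 477 FPKM and KRT7 from 977 to 1161 to 595 to 694. KRT18 went from 276 to 285 to 160 to 191, while KRT5, at 879 to 1043 with residual medium and 814 to 896 with EV, overlapped. The splicing factor ESRP1 was at 32.2 to 35.5 FPKM with residual medium and 47.6 to 49.9 with EV, and the transcription factor GRHL2 at 10.7 to 11.1 and 11.8 to 13.1, both higher with EV and without overlap. The adhesion genes EPCAM, at 184 to 188 and 165 to 178, and CDH1, at 51.7 to 56.6 and 47.6 to 49.2, lay slightly lower with EV, and CLDN7, at 47.5 to 48.1 and 42.2 to 50.7, overlapped. CLDN4 fell further, from 7.62 to 8.14 FPKM with residual medium to 2.67 to 3.40 with EV. Only 2 of these markers passed the level filter in both lines, so most could not be compared between lines. KRT8 did not pass against fresh medium, at -0.69 (adjusted p = 0.27).

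Genes of the mitochondrial genome were examined after MT-CO1, MT-ATP6 and MT-ND6 had appeared among the largest negative line differences. MT-CO1, a subunit of cytochrome oxidase, was 1019, 995 and 1089.7 FPKM in HPDE residual medium and 489, 389 and 297 with EV. In HPNE it was 2076, 1938 and 1741 and 3908, 2029.8 and 2185, and the line difference was -1.86 ± 0.37 (adjusted p = 0.00173). Of 12 tested protein-coding genes, 11 fell in HPDE, none changed by its test in HPNE, and 8 had a more negative line difference. The count was 5 without HPNE PANC-1 EV replicate 1 and 4 without HPDE PANC-1 EV replicate 3, and 4 without both HPNE libraries that lay apart. With fresh medium as control it was 0. The library kit kept no strand, so MT-ND6 cannot be told apart from transcripts of the other strand. The share of reads from the mitochondrial genome was 0.362 to 1.04% in the HPDE libraries and 0.746 to 1.57% in the HPNE libraries.

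Mitosis and DNA replication genes had medians below 0 in both lines, and whether their line differences passed turned on 1 control library. Of 30 mitosis genes 8 fell in HPDE and 29 in HPNE, with medians of -0.60 and -1.38. Of 26 replication genes 11 fell in HPDE and 26 in HPNE, with medians of -0.55 and -1.02. No member of either list had a line difference that passed with all libraries. The mitosis list mean was 4.87, 4.90 and 3.07 in HPNE residual medium and 2.75, 3.05 and 2.90 with EV, so replicate 3 of the control lay near the EV libraries. In HPDE it was 5.25, 5.33 and 5.32 with residual medium and 4.67, 4.71 and 4.64 with EV, without overlap. The HPDE counts of 8 and 11 use a spread estimated over both lines, which takes in HPNE residual medium replicate 3. The other members cannot be taken as unchanged in HPDE from these counts.

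Without HPNE residual medium replicate 3, all 30 mitosis genes and 21 of 26 replication genes had a more positive line difference, with medians of 1.32 and 0.84. MKI67, the proliferation marker Ki-67, was 20.6, 20.1 and 3.91 FPKM in HPNE residual medium and 2.86, 4.03 and 3.998 with EV, and 26.3, 26.5 and 29.4 against 21.5, 18.2 and 20.5 in HPDE. Its line difference was 1.08 (adjusted p = 0.203), and 1.78 (0.00259) without that replicate. KIF20A, a kinesin of cytokinesis, had 0.71 (0.269) and 1.28 (0.00242), and LMNB1, lamin B1, 1.00 (0.113) and 1.5 (0.00159). In fresh medium the HPNE mitosis means were 2.36, 2.34 and 3.33, near or below those with EV in replicates 1 and 2. Relative to fresh medium 1 mitosis gene and 5 replication genes were more negative in HPDE, and none was more positive.

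The controls themselves differed between the lines. Residual medium against fresh medium changed 275 genes in HPDE (2.62%) and 6018 in HPNE (57.4%), of which 2847 were higher (27.2%) and 3171 lower (30.2%) in HPNE. Relative to fresh medium the line difference in the PANC-1 EV effect passed for 2135 genes (20.4%), 1036 more positive (9.88%) and 1099 more negative (10.5%) in HPDE. The list counts given above against fresh medium stand beside these shares. Of the 1908 genes that passed against residual medium, only 508 also passed against fresh medium with the same sign, and 107 passed with the opposite sign. The fresh medium contrast shares the PANC-1 EV libraries with the main one, so the values are given side by side and not as independent support. Of the 12 genes with the largest positive line difference, 3 passed in the same direction under both controls, namely SAA1, ERRFI1 and ARRDC4. Of the 12 with the largest negative one, 2 did, PTX3 among them. G0S2, CXCL3 and JUP passed in opposite directions.

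PPCL-68 EV served to ask whether the line difference was the same for another vesicle source, in a contrast in which the controls cancel. The line difference of PANC-1 EV minus that of PPCL-68 EV passed for 1593 genes (15.2%), 684 more positive (6.52%) and 909 more negative (8.67%). Without HPDE PPCL-68 EV replicate 2 it passed for 1061. ERRFI1 had -0.11 (adjusted p = 0.535), PTX3 -0.13 (0.819) and UNC5B 0.02 (0.989), and did not pass. Genes that passed included STC2 at 1.23 (0.00712), IL32 at 1.07 (0.000273), JUP at -1.70 (0.000423) and NPC2 at -0.82 (0.000373), each with the sign of its PANC-1 line difference. G0S2, at -0.88, and RGS3, at -0.41, passed with the opposite sign. IRF1 had 0.82, again opposite to its PANC-1 line difference. By list, 8 of 27 endoplasmic reticulum genes and 9 of 23 cholesterol genes were more negative for PANC-1 EV in this contrast, and 9 of 19 interferon-stimulated genes were more positive.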

How the data were processed

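RNA for 24 libraries was extracted with a column kit and made into libraries that keep no strand, per the labels' protocols. CASAVA, STAR, HTSeq, DESeq2 and the genome build hg19 are listed without roles in the submitters' processing notes; the annotation release is not given in the sources used here. The authors deposited 1 table of FPKM per library, with gene length, symbol and position, per the file headers. Undoing the scaling by gene length and library total turned 100% of values into whole reads within 0.05 reads, which gave the read totals. Groups came from the sample titles. limma 3.58.1 (R 4.3.3), lmFit and eBayes with a trend, was fitted to log2(FPKM + 1) of all 24 libraries in 8 groups (16 residual degrees of freedom), on the 10483 genes whose mean FPKM reached 1 in each line. The p-values were two-sided and adjusted by Benjamini-Hochberg over these genes. The log2(FPKM + 1) scale understates changes of weakly expressed genes. On simulated data 148 of 200 genes with a 2-fold line difference were recovered among 10483, with 12 unchanged genes called, and 0 genes were called when none was changed. The simulated spread was drawn for each gene on its own. No simulated library lay apart as a whole, as HPNE residual medium replicate 3 did, so the simulation does not cover that case.

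Genes were named by rule: up to 12 each way with the largest line difference, up to 8 each way with opposite effects in the lines, up to 8 each way with the same direction in both lines and no called difference, 21 stress, lipid, growth and cytokine genes always, and up to 3 called members of each of 19 lists. The first 2 sets needed an FPKM of at least 5 in 1 group and no overlap of the libraries. A few of these genes are not reported here. Further list members are named where a count is described, and the 12 genes of the mitochondrial genome were chosen after their values were seen. The lists were written from general knowledge, and they and the compared groups were chosen with earlier results of these data known. Lists are described by counts and medians and were not tested as sets. Alternatives were a pseudocount of 0.1, no filter, median-of-ratios size factors, fewer libraries in the fit, each line alone, a replicate block, limma voom on the recovered reads, and leaving out libraries. Promoters were matched by symbol to RefSeq (GRCh38.p14) for 85 of 106 named genes.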

Additional observations from a re-analysis of the deposited data

Results flagged for a closer look

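The EV effect went in opposite directions in the lines for 215 genes, each with a tested line difference. Of the genes named from this class, the line difference relative to residual medium was positive for PDK1 (1.53), KANK1 (1.24), ERO1L (1.23), RGS3 (1.09), NFXL1 (1.06), IL32 (1.05), FAM216A (1.04) and TBC1D4 (1.01). It was negative for PLK2 (-1.73), DUSP4 (-1.65), TIMP3 (-1.51), APOL1 (-1.51), PLEKHF1 (-1.51), KITLG (-1.29) and SLC6A6 (-1.24). Each of these passed an adjusted p of 0.05 by limma in both lines and in the difference. These genes were ranked on the same libraries, so their sizes are descriptions. Against fresh medium, RGS3, KITLG, KANK1, NFXL1 and TBC1D4 passed with the same sign and IL32 and TIMP3 with the opposite one.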

How the results depend on the processing

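Over 20 alternatives, all 78 named genes with a called line difference kept its direction, and 61 of them passed the threshold in every one. Of 28 named genes short of the threshold, 16 passed without HPNE residual medium replicate 3. The number of genes with a line difference, 1908, was 3514 without that library and 3317 without it and HPNE PANC-1 EV replicate 1, and it ranged from 1390 to 3514 when single libraries were left out. Against fresh medium the count of 2135 became 3999 without both libraries. It ranged from 1441 to 2920 when single libraries were left out, the highest without HPNE fresh medium replicate 3. The HPNE count of 4552 was 1359 when only its 6 libraries entered the fit and 2598 when HPNE was fitted alone. In the same settings the HPDE count of 4765 was 6642 and 6866. The PANC-1 minus PPCL-68 count of 1593 ranged from 1061 to 1923, the lowest without HPDE PPCL-68 EV replicate 2. Each of these fits held fewer libraries, and the cause of the shifts was not tested. With the replicate number as a replicate block the 5 counts were 1896, 2040, 4716, 4481 and 1507, and 2 named genes, MSMO1 and CTSD, no longer passed. Deviations of same-numbered EV and residual medium libraries from their group means correlated at -0.28, -0.05 and -0.07 in HPDE and -0.30, 0.33 and -0.27 in HPNE. Unlike numbers gave -0.15 to 0.18 in HPDE and -0.37 to 0.37 in HPNE. Each deviation is from a mean of only 3 libraries, so these values cannot decide whether the numbers pair the libraries. Library totals lay between 29209142 and 46490312 reads, and 3 libraries a group limit the precision.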
